A study of Mus musculus with 2 samples.

Results

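The cells described here are Fev-positive endocrine precursors of the embryonic mouse pancreas that carry little hormone RNA. They were read from single-cell RNA profiles of the pancreas at embryonic day 14.5 (10x Genomics droplets, where RNA is tagged per droplet by a barcode and per molecule by a UMI). Members were chosen by measured counts. A barcode was a member when it had at least 3000 UMIs, under 10% mitochondrially encoded UMIs, at least 3 Fev UMIs and at most 2 Neurog3 UMIs. It also had to hold, per 10000 UMIs, under 20 of Gcg, Ins1 and Ins2 together, under 10 of Ghrl, under 10 of Sst and under 5 of the collagens Col1a1, Col1a2 and Col3a1. At most 1 UMI of the acinar factors Rbpjl and Ptf1a was allowed. The rule found 578 cells, 353 of the Control and 225 of the Null library, among 22109 barcodes that passed the depth and mitochondrial limits (14367 and 7742) and 46917 barcodes in all.

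The series asks what loss of the secreted growth factor Fgf9 does to the developing pancreas. Control was 1 library from 8 pancreata of 3 litters, a mix of Fgf9 +/+ and Fgf9 +/- embryos. Null was 1 library from 3 pancreata of 3 litters with the Fgf9 -/- genotype, in which a LacZ cassette inserted at Fgf9 makes the gene non-functional. All embryos had a C57BL/6J background, and both pools were dissociated with TrypLE and sorted for live (DAPI-negative) cells after a size gate. The labels do not say whether the control genotypes were in equal numbers. With 1 library per group there is no replicate and no test between groups. Values in parentheses after a level, share or ratio are 95% intervals that cover counting error only. They are exact, except those of the ratio of shares and of the differences between shares, which are approximate.

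Endocrine cells of the pancreas arise from the trunk epithelium through a short burst of the basic helix-loop-helix factor Neurog3. Cells that have left that burst switch on the ETS-family factor Fev before they settle on a hormone, and Pax4 is among the factors that guide them to beta and delta fates. Fev is best known for its role in serotonin neurons, where it controls serotonin synthesis and transport genes.

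The Control library held 339959625 UMIs and the Null library 271129120. Median depth was 12688 UMIs (4059 to 56983) for Control and 18445 (4734 to 68212) for Null members, so a limit set in UMIs reached lower relative levels in the Null library. Sums of UMIs over the members are given as CPM, the scaled count relative to all UMIs of the same cells without haemoglobin and mitochondrially encoded genes. Digestive enzymes, which these cells should lack, stood at 2445 CPM in Control and 1449 CPM in Null members. In all barcodes of each library, cells included, they stood at 12202.5 and 22146 CPM. The share of free RNA was set as the first over the second, 20.04% in Control and 6.54% in Null members. The divisor includes acinar cells, so how far the gap between these shares reflects free RNA was not tested. Xist was at 0 UMIs in 132 of 353 Control members (37.4%) and 223 of 225 Null members (99.1%), so in the pooled values sex and genotype cannot be told apart. The libraries shared 180 barcode sequences, 3 of them Control members and 1 a Null member. Fgf9 itself had 31 UMIs in Control members, 6.67 CPM (4.53 to 9.46), and 0 UMIs in Null members, which allows up to 0.843 CPM. The labels do not say whether the cassette removes the 3' end that is counted.

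Other gates serve for comparison. Neurog3-high cells had at least 3 Neurog3 UMIs and the members' hormone limits, and Gcg-high and Ins-high cells at least 20 UMIs per 10000 of Gcg or of Ins1 and Ins2. Ghrl-high and Sst-high cells had at least 10 of their hormone, and Sox9-high cells at least 3 Sox9 and 2 Epcam UMIs with 0 of Neurog3 and Fev. No cell was in more than 1 gate.

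The 4 markers that the rule did not use were compared with acinar-gate cells. These markers were chosen with earlier results of these data known, and the rule leaves out acinar-gate cells, so the shares are a description. After each cell was thinned to 3000 UMIs, a UMI of Chgb was found in 94.9% and 95.6% of Control and Null members, against 9.54% and 4.84% of acinar-gate cells, which should lack these genes. For Neurod1 the shares were 79.6% and 78.2% against 1.67% and 0.595%, for Runx1t1 64.9% and 56.0% against 5.43% and 3.77% and for Cryba2 64.9% and 62.2% against 1.11% and 0.675%. All 4 were thus found in a larger share of members than of acinar-gate cells in both libraries. Other endocrine gates also held these genes, at levels given below, so the shares set members apart from acinar cells only. Without thinning, all 5 markers, Fev included, had a UMI in 283 of 353 Control (80.2%) and 202 of 225 Null members (89.8%), at the unequal depths given above. Fev and the hormone limits were used by the rule, so the hormone values only describe where members lie under those limits. Gcg, Ins1 and Ins2 together had a median of 3.58 UMIs per 10000 in Control and 2.13 in Null members. Cells gated as acinar, which should lack these hormones, had medians of 1.80 and 1.30, and Sox9-high trunk cells 2.49 and 1.54. The summed hormones stayed under 5 per 10000 in 260 Control (73.7%) and 214 Null members (95.1%). Sst, the delta hormone, also capped, was at 0 in 346 of 353 and 221 of 225 cells.

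Markers of other cell types marked a few barcodes. Of the 10 leukocyte markers, 212 UMIs fell in 1 Control barcode and 341 UMIs in 1 Null barcode of 53152 UMIs with 5 Fev UMIs. Of the 9 erythroid markers, 3231 UMIs fell in 1 Control barcode of 13141 UMIs, and of the 10 endothelial markers, 109 UMIs fell in 1 Null barcode. Over all members the summed leukocyte markers stood at 74.6 and 95.7 CPM, the endothelial at 37.2 and 53.2, the 12 mesenchymal at 77.2 and 46.4, the 8 mesothelial at 35.3 and 20.8 and the 13 neural crest markers at 58.1 and 57.3 CPM in Control and Null. The erythroid sums were 718 and 10.97 CPM, and the 18 acinar markers stood at 2512 and 1491 CPM. Of the defining markers, Msln was at 0 in both libraries, Tek in the Control and Twist1, Foxd3 and Slc4a1 in the Null library. Scrublet called 21 Control (5.95%) and 8 Null members (3.56%) doublets, against 9.33% and 3.90% of all barcodes that passed the depth limit. What these barcodes add to the results was not tested except where values without them are given.

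Fev, of which the rule requires at least 3 UMIs, stood higher in these cells than in the gates given here. Fev was at 513 CPM in Control and 442 CPM in Null cells, with 91.9 and 72.6 CPM in Neurog3-high progenitors, 55.6 and 72.2 CPM in Gcg-high cells and 53.7 and 54.8 CPM in Ins-high cells. Per cell it ranged from 0.931 to 20.4 UMIs per 10000 (median 4.35) in Control cells, and from 0.440 to 17.1 (median 3.77) in Null cells. The ranges of the 2 libraries overlapped.

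Chgb, which encodes the granule protein chromogranin B and was not part of the rule, stood at 14978 CPM in Control and 17327 CPM in Null cells. It was lower in every other endocrine gate of both libraries, with 1632 and 1353 CPM in Neurog3-high, 3659 and 4747 CPM in Gcg-high and 4908 and 5952 CPM in Ins-high cells. The acinar gate, which shows the background, had 100.03 and 33.7 CPM. Neurod1, the basic helix-loop-helix factor downstream of Neurog3, was at 646 and 611 CPM in members against 302 and 235 CPM in Neurog3-high cells. The transcriptional corepressor gene Runx1t1 was at 481 and 431 CPM against 224 and 171 CPM, and at 68.1 and 54.5 CPM in Ins-high cells. Cryba2, a beta-crystallin gene expressed in endocrine cells, was at 475 and 507 CPM against 74.0 and 65.9 CPM, but Ins-high cells came close with 366 and 440.1 CPM. In Ghrl-high cells, Neurod1 reached 556 and 706 CPM, which in the Null library is above the members.

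**Figure D1:**
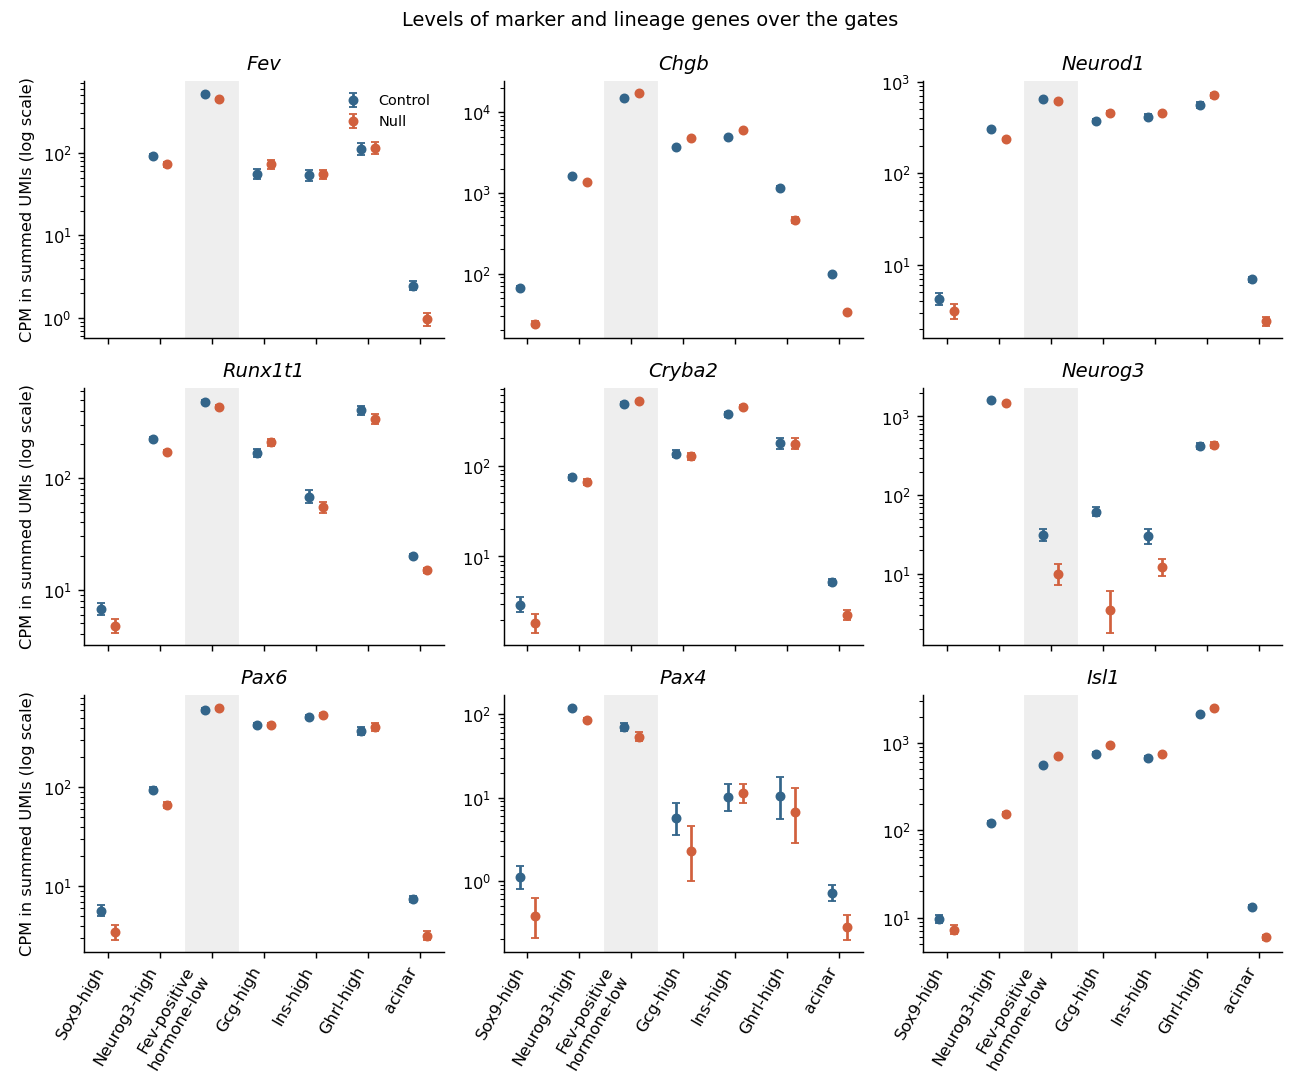
Levels of 9 genes in 7 gates, as CPM of summed UMIs on a log scale. Points are the Control and Null libraries with exact 95% Poisson intervals, the grey band marks the Fev-positive hormone-low cells, and gates with 0 UMIs are not drawn. Fev and Chgb stand highest in the grey band in both libraries, while Isl1 is highest in Ghrl-high cells.

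Fev and Cryba2 are neighbours on chromosome 1 in the same orientation. In the GENCODE annotation of GRCm38, Fev (ENSMUSG00000055197) covers 74881509 to 74885419 and Cryba2 (ENSMUSG00000006546) 74889934 to 74893143, both on the minus strand, with 4514 bases between them. Their upstream stretches are shown because the pair stood high in the same cells. Both are the 5' to 3' minus-strand sequence directly before the gene start, from RefSeq's GRCm38.p6, at chr1:74885420-74885658 and chr1:74893144-74893393. Capitals mark the letters TAATTA, a core bound by homeodomain factors, and CAGCTG, an E-box of the kind bound by basic helix-loop-helix factors.
Fev upstream: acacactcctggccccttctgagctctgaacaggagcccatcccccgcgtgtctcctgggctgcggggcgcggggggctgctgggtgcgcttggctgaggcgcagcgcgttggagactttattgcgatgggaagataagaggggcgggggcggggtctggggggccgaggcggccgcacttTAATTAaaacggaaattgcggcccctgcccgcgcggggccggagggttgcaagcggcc
Cryba2 upstream: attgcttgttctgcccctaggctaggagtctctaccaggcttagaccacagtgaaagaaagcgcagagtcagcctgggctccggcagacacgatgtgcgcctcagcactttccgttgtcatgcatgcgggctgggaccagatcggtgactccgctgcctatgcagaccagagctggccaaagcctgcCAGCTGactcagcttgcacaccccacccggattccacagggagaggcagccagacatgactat
Both strands were searched and the motifs were chosen after the sequences had been read. TAATTA occurred once in the Fev stretch and not in that of Cryba2, and CAGCTG once in the Cryba2 stretch and not in that of Fev. Of 27025 mouse promoters of 250 bases, 4.90% held TAATTA and 12.8% held CAGCTG. A match describes the letters and is no evidence of a bound site.

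Set against Neurog3-high cells, the members held less RNA of progenitor genes and more of secretory granule genes. Because the rule caps Neurog3, all these contrasts are descriptions. Of 11603 genes measured, 6.72% were at least 2-fold higher in members in both libraries and 9.11% at least 2-fold lower. Of 32 granule and processing genes, 24 were at least 2-fold higher and 0 lower. The prohormone convertase gene Pcsk2 stood at 562 and 714 CPM in members against 40.9 and 48.6 CPM, and Pam, which amidates peptide hormones, at 436 and 683 CPM against 40.9 and 45.5 CPM. Of 19 measured alpha-side genes, 16 were higher and 1 lower, and of 19 beta-side genes 11 were higher and 1 lower. Both lists were assembled with earlier results of these data in view.

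The 8 genes ranked first on the higher side against Neurog3-high cells were led by peptide and membrane protein genes. Gast, which encodes gastrin, stood at 289 and 557 CPM against 13.8 and 8.26 CPM, log2 differences of 4.39 and 6.07. Peg10, an imprinted gene derived from a retrotransposon, stood at 887 and 1114 CPM against 64.8 and 39.0 CPM. Cltrn, the membrane glycoprotein collectrin, had log2 differences of 3.84 and 4.74, and the AMPA receptor subunit gene Gria2 4.23 and 5.62. The others were A2ml1, a protease inhibitor gene (4.25 and 4.81), Aard (5.27 and 4.76), Ctxn2 (4.48 and 5.71) and Pcsk2 (3.78 and 3.88).

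On the side of the progenitor genes, 15 of 23 were at least 2-fold lower in members in both libraries and 0 higher. The Notch ligand gene Dll1 stood at 9.25 and 5.03 CPM in members against 49.3 and 57.2 CPM in Neurog3-high cells, and Amotl2, which binds YAP, at 24.9 and 23.8 CPM against 221 and 289 CPM. Sox4, an SRY-related factor of endocrine differentiation, was at 316 and 296 CPM against 1263 and 1419 CPM. Outside that list, Rasgrp3, an exchange factor for Ras proteins, stood at 2.37 and 2.97 CPM against 103 and 133 CPM. The antiviral gene Rsad2 (log2 -4.69 and -5.06), the semaphorin gene Sema3g (-5.84 and -5.86), the kinesin gene Kif26a (-6.81 and -5.30) and Epb42 (-4.02 and -6.41) were also among the leading genes on the lower side. Of 15 Notch pathway genes 8 were lower, and of 21 trunk genes 12.

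Cell cycle genes were low. All 20 genes of the G2/M list were at least 2-fold lower than in Neurog3-high cells in both libraries, and 9 of 20 S phase genes. The proliferation marker Mki67 stood at 44.7 and 56.2 CPM against 194 and 212 CPM, and it was at 0 in 249 of 353 and 178 of 225 members. Cdkn1a, the cyclin-dependent kinase inhibitor p21, was also lower, at 268 and 235 CPM against 737 and 848 CPM, and Gadd45a, a growth-arrest gene, at 51.2 and 41.8 CPM against 465 and 431 CPM. Of the 10 cell cycle exit genes measured, 5 were at least 2-fold lower than in Neurog3-high cells in both libraries and 2 higher.

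Pan-endocrine transcription factors differed among themselves. Pax6, a factor of islet development, stood at 602 and 626 CPM in members against 94.6 and 66.2 CPM. Isl1 stood at 553 and 701 CPM against 122 and 153 CPM and the zinc finger gene St18 at 188 and 196 CPM against 47.6 and 49.2 CPM. Insm1, at 237 and 255 CPM against 352 and 302 CPM, and Nkx2-2, at 263 and 219 CPM against 380.0 and 367 CPM, were lower in members but by less than 2-fold. Of 18 factors measured, 6 were at least 2-fold higher in both libraries and 0 lower.

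Against the hormone-expressing cells the differences were fewer. Of 9869 genes measured against Gcg-high cells, 2.55% were at least 2-fold higher and 2.04% lower in members. Against Ins-high cells the shares were 2.9% and 2.32% of 9814 genes. Of 19 alpha-side genes, 9 were lower than in Gcg-high cells and 0 higher, and of 21 beta-side genes, 16 were lower than in Ins-high cells and 1 higher. Gcg is among those 9, and Ins1 and Ins2 are among those 16. The rule caps these hormones and the compared gates select for them, so they are lower by construction. Irx1, an Iroquois factor of alpha cells, stood at 21.1 and 15.5 CPM against 272 and 296 CPM in Gcg-high cells. Cartpt, a neuropeptide gene, stood at 7.10 and 3.198 CPM against 160.1 and 246 CPM, and Ifih1, a sensor of double-stranded RNA, had log2 differences of -4.75 and -5.00. Mafa, the factor of mature beta cells, stood at 1.08 and 3.88 CPM against 288 and 541 CPM in Ins-high cells, and the neuropeptide gene Npy at 1.08 and 1.37 CPM against 306 and 939 CPM. Syndig1l had 0 UMIs in the members, so its log2 difference to Ins-high cells was at most -5.50 and -6.39 against a floor of 3 counts.

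On the higher side against Gcg-high cells, Pax4 stood at 70.7 and 54.1 CPM in members and 5.66 and 2.30 CPM in Gcg-high cells. Adra2a, the alpha-2A adrenergic receptor, stood at 37.6 and 44.5 CPM against 2.06 and 3.74 CPM, and Cacna1h, a T-type calcium channel, at 83.6 and 76.8 CPM against 11.3 and 8.06 CPM. Against Ins-high cells, the alpha-lineage factor Pou3f4 stood at 218 and 256 CPM and 13.7 and 12.9 CPM, and the adhesion gene Alcam at 227 and 308 CPM and 39.9 and 51.9 CPM. These are sums over cells, so they do not say whether 1 cell held both genes.

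Only a few genes stood above all 3 neighbouring gates. Of 6365 genes with at least 20 CPM in members, 34 (0.534%) were at least 2-fold higher than in Neurog3-high, Gcg-high and Ins-high cells of both libraries, and 29 of these were not predicted gene models. After Fev, they were led by Ppp1r14c, an inhibitor of protein phosphatase 1, at 82.6 and 109.7 CPM in members and 19.1 and 13.8 CPM in Gcg-high cells. Scn9a, a voltage-gated sodium channel, stood at 30.8 and 47.3 CPM against 6.44 and 10.6 CPM in Gcg-high cells. The tight junction gene Cldn4 stood at 212 and 225 CPM against 73.9 and 86.3 CPM in Neurog3-high cells, and the sulfatase gene Sulf1 at 33.1 and 29.0 CPM against 11.6 and 8.26 CPM. St18, Ddc, Tac1 and Smpdl3a completed the 10 genes named by the ranking, with Chgb. Ppp1r14c was higher still in Sst-high cells, at 214 and 226 CPM, a gate of 26 and 23 cells. Against Sox9-high trunk cells 14.1% of 12719 genes were at least 2-fold higher and 14.3% lower, against Ghrl-high cells 1.87% and 1.64% of 8920, and against Sst-high cells 3.29% and 1.34% of 8440.

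Genes of serotonin-making cells were present only in part. Ddc, which makes serotonin and dopamine from their precursors, stood at 121 and 109 CPM in members and 32.8 and 22.1 CPM in Neurog3-high cells. Gch1, which supplies the cofactor of tryptophan hydroxylase, stood at 412 and 378 CPM against 40.5 and 31.7 CPM. Tac1, the substance P precursor of enterochromaffin cells, stood at 31.0 and 27.2 CPM against 1.64 and 0.561 CPM, but it was at 0 in 317 of 353 and 208 of 225 cells and reached 27.1 and 27.5 UMIs per 10000 in single cells. Tph1, the rate-limiting enzyme of serotonin synthesis outside the brain, stood at 1.72 and 2.51 CPM, and the enterochromaffin factor Lmx1a at 2.80 and 3.198 CPM. The serotonin transporter gene Slc6a4 had 1 UMI in all Control and 0 UMIs in all Null members, which allows up to 0.843 CPM.

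Pax4, the paired-box factor of the beta and delta lineages, stood at 70.7 and 54.1 CPM in members against 118 and 86.3 CPM in Neurog3-high cells and 10.1 and 11.3 CPM in Ins-high cells. It was lower in members than in the progenitors and higher than in Ins-high cells in both libraries, as levels with no replicate check. After each cell was thinned to 3000 UMIs, a Pax4 UMI was found in 17.0% of Control (13.2 to 21.3) and 14.2% of Null members (9.94 to 19.5), and without thinning in 44.2% and 48.0%. The acinar gate, at median depths of 33285 and 48757 UMIs before thinning, showed thinned shares of 0.126% and 0.159%. Neurog3-high cells showed 27.3% and 21.8%, and Gcg-high cells 0.866% and 1.53%.

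Genes of the hormone lineages were present side by side in the summed members; those given here were chosen after their values were seen. Pdx1, which beta cells retain from the pancreatic progenitors, stood at 297 and 336 CPM in members, 84.7 and 77.7 CPM in Gcg-high and 515 and 574 CPM in Ins-high cells. Nkx6-1, a beta-cell factor, stood at 438 and 419.9 CPM, 133 and 105 CPM and 467 and 580.5 CPM in the same order. The beta-lineage homeobox gene Mnx1 stood at 52.7 and 46.8 CPM in members and 63.5 and 66.1 CPM in Ins-high cells, and 6.95 and 6.04 CPM in Gcg-high cells. The alpha-cell gene Irx2 stood at 43.7 and 41.8 CPM in members, 296 and 351 CPM in Gcg-high and 4.10 and 2.004 CPM in Neurog3-high cells. Hhex, the homeobox factor that maintains delta cells, stood at 69.5 and 25.4 CPM in members and 1088 and 1442 CPM in Sst-high cells.

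Members with more Fev had less RNA of several peptide genes. Fev sets these bins, so they too are a description. Cells with 10 or more Fev UMIs per 10000 numbered 33 of 353 Control (9.35%) and 18 of 225 Null members (8%), and those under 5 numbered 213 (60.3%) and 152 (67.6%). Between them, 0.44% of 8855 genes were at least 2-fold higher in both libraries and 2.74% lower. Iapp, the amyloid peptide released with insulin, stood at 97.2 against 471 and 117 against 959 CPM, Gast at 60.4 against 356 and 148 against 542 CPM and Scg2, secretogranin II, at 15.8 against 82.5 and 27.6 against 164 CPM. Sox4 stood higher at high Fev, at 533 against 283 and 521 against 269.6 CPM, and Runx1t1 at 701 against 394 and 900.3 against 359.7 CPM. Kit, a receptor tyrosine kinase, stood at 142 against 65.3 and 221 against 76.1 CPM. Median depth was 11711 and 16243.5 UMIs at high and 13141 and 18732.5 UMIs at low Fev.

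Members with a trace of Neurog3 differed in few genes. Cells with 1 or 2 Neurog3 UMIs numbered 114 (32.3%) and 38 (16.9%), and against cells with 0, 0.126% of 9536 genes were at least 2-fold higher and 0.178% lower in both libraries. Apoe, a lipid carrier that macrophages also express, stood at 205 against 62.6 and 111 against 40.8 CPM. The leukocyte gene Fcer1g moved with it, at 28.0 against 8.66 and 82.4 against 3.08 CPM, and the 10 leukocyte markers together stood at 155 against 35.3 and 442 against 18.2 CPM. Without cells that held 3 or more UMIs of other cell types' markers, Apoe stood at 75.2 against 60.5 and 45.0 against 43.3 CPM and Fcer1g at 0.783 against 2.94 and 5.88 against 2.15 CPM. Pcsk2 stood at 399.8 against 642 and 415 against 781 CPM, and Isl1 at 410.3 against 623 and 502 against 745 CPM.

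A minority of members held Fev with little Chgb. Under 20 Chgb UMIs per 10000 were found in 45 Control (12.7%) and 24 Null members (10.7%), a split chosen after its values were seen. In both libraries 0.64% of 9536 genes were at least 2-fold higher in these cells than in the other members and 1.31% lower. The LIM-homeodomain gene Isl1 stood at 1728 against 389 CPM in Control and 2125 against 507 CPM in Null cells. Mboat4, the enzyme that acylates ghrelin, stood at 66.9 against 6.86 and 84.0 against 4.41 CPM, and Arg1, an arginase of epsilon cells, at 40.5 against 5.63 and 40.1 against 5.45 CPM. The neurofilament gene Nefm stood at 382 against 64.2 and 508 against 55.8 CPM and Cdkn1a at 736 against 203 and 548 against 193 CPM. Ghrl-high cells had Isl1 at 2138 and 2515 CPM, Mboat4 at 243 and 255 CPM, Arg1 at 281 and 315 CPM and Cdkn1a at 2275 and 2442 CPM. Ghrl itself, which the rule caps, stood at 17.6 against 22.3 and 32.5 against 11.7 CPM in the low-Chgb and other members. Chga, chromogranin A, stood lower in the low-Chgb cells, at 1062 against 2222 and 1084 against 3269 CPM, as did Mnx1, at 8.81 against 58.8 and 0 against 53.2 CPM.

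Pyy, peptide YY, was spread widely over the members. It was at 0 in 62 of 353 Control and 34 of 225 Null cells, with medians of 2.09 and 3.74 and highest values of 377 and 845 UMIs per 10000. At least 20 UMIs per 10000, again a split chosen after its values were seen, were found in 90 Control (25.5%, 21.0 to 30.4) and 79 Null members (35.1%, 28.9 to 41.7). Within these cells Pyy stood at 11002 and 17402 CPM, and in the other members at 295 and 325 CPM. The Pyy-high share was larger in the Null library, with intervals that overlap, and the level within those cells was also larger.

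The Pyy-high members shared other genes. Ppy stood at 477 against 8.47 CPM in Control and 647 against 23.1 CPM in Null cells, and the retinol carrier gene Rbp4 at 2075 against 506 and 1639 against 432 CPM. Peg10 (1860.0 against 538 and 2172 against 525 CPM), Scg2 (137 against 36.8 and 281 against 80.1 CPM) and Irx2 (94.5 against 25.4 and 83.6 against 18.5 CPM) were also higher. Chgb stood lower, at 9418 against 16969.8 and 9779 against 21536 CPM, as did the endocrine factor Rfx6, at 57.9 against 132 and 76.6 against 145 CPM, and the LIM-homeodomain gene Lhx1, at 91.3 against 206 and 105 against 186 CPM. Over all genes, 0.556% of 9536 were at least 2-fold higher and 0.398% lower in both libraries. Of the low-Chgb cells, 27 of 45 (60%) and 22 of 24 (91.7%) were Pyy-high.

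**Figure D2:**
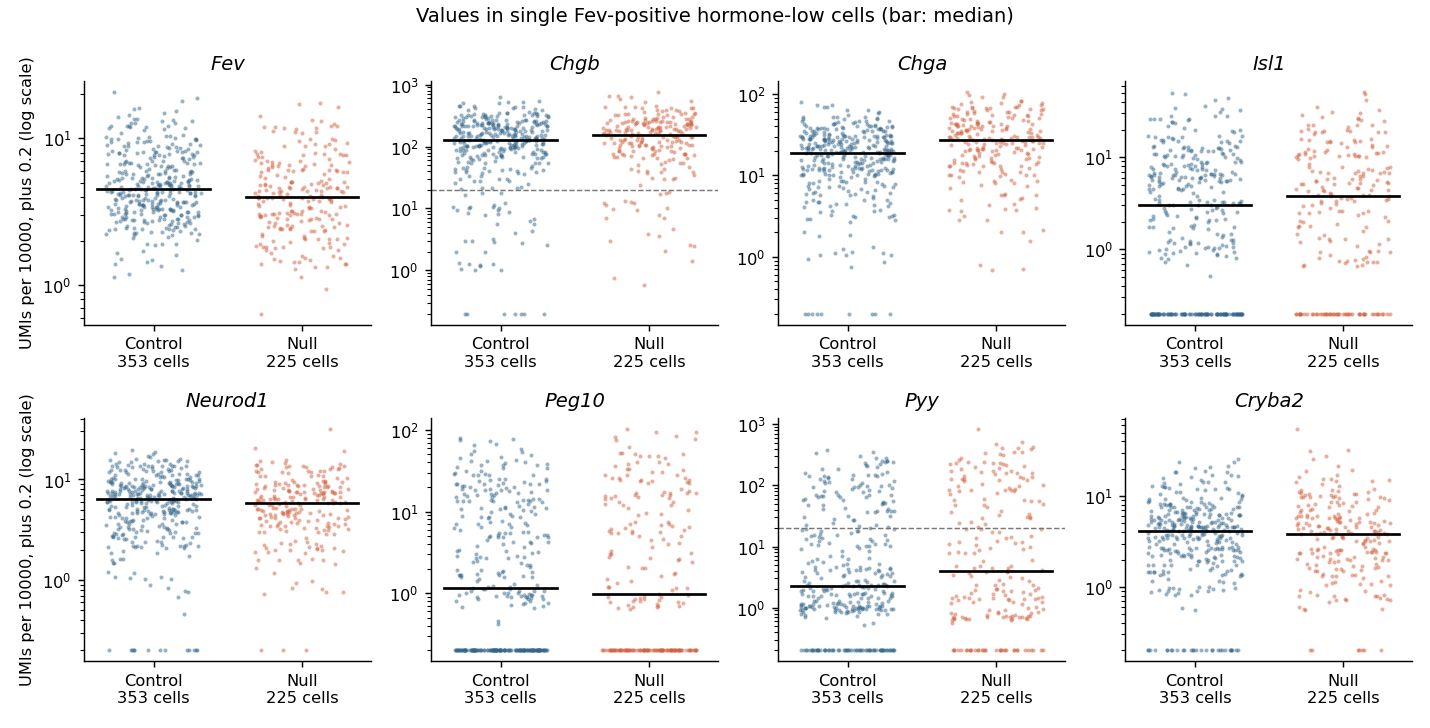
UMIs per 10000 of 8 genes in each of the 353 Control and 225 Null members, on a log scale with a small constant added so that cells at 0 show as the lowest row. Bars are medians and dashed lines mark 20 per 10000 for Chgb and Pyy. Chgb and Chga are high in most cells with a tail of low cells, while Pyy is at 0 in 62 and 34 cells and reaches 377 and 845 per 10000.

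Ppy and Pyy, both higher in the Pyy-high cells, lie next to each other. In GRCm38, Ppy (ENSMUSG00000017316) covers 102099930 to 102101319 and Pyy (ENSMUSG00000017311) 102106676 to 102107832 on chromosome 11, both on the minus strand and 5356 bases apart. Their upstream stretches, from RefSeq's GRCm38.p6 at chr11:102101320-102101569 and chr11:102107833-102108082, are printed 5' to 3' on the minus strand with the letters TATAA, the core of a TATA box, in capitals.
Ppy upstream: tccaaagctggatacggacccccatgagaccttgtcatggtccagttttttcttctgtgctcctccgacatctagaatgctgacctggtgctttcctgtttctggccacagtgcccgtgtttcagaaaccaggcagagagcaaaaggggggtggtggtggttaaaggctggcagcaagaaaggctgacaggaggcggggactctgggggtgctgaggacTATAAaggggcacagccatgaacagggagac
Pyy upstream: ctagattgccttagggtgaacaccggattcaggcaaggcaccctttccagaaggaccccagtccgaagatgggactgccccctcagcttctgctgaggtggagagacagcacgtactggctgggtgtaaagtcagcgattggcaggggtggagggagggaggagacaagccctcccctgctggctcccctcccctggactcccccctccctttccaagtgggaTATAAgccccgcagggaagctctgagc
Each stretch held TATAA once, on the printed strand, and neither held the other pair of motifs. Of the same promoters, 23.5% held it.

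Between the genotypes, the share of these cells among endocrine cells was close. The 6 endocrine gates held 1936 Control and 1203 Null cells, and the members were 18.2% (16.5 to 20.03) and 18.7% (16.5 to 21.0) of them, a ratio of 1.03 (0.882 to 1.19). With Fev set as at least 2 per 10000 UMIs, a limit relative to depth, the ratio was 0.880. Neurog3-high cells made up 53.8% and 47.2% and Ins-high cells 10.3% and 16.5%. The share of members with a Pax4 UMI after thinning differed by -2.78 percentage points (-8.60 to 3.50), Null minus Control, which was not detectable beyond counting error.

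The defining genes stood less than 2-fold apart in the 2 libraries. Fev was part of the rule, as a limit in UMIs at unequal depths, so its ratio is a description. Log2 ratios of Null over Control CPM were -0.21 (-0.30 to -0.13) for Fev, 0.21 (0.20 to 0.23) for Chgb, -0.08 (-0.16 to -0.0044) for Neurod1, -0.16 (-0.25 to -0.07) for Runx1t1 and 0.10 (0.01 to 0.18) for Cryba2. Over 10290 genes measured the median was 0.07, and 0.593% were at least 2-fold higher and 1.05% at least 2-fold lower in the Null library. Of the 5 markers, 0 passed 2-fold. With free RNA subtracted, the ratios were -0.43 for Fev, -0.005 for Chgb, -0.29 for Neurod1, -0.36 for Runx1t1 and -0.12 for Cryba2. Isl1 had 0.34 (0.27 to 0.42), Pdx1 0.17 (0.07 to 0.28) and Pax4 -0.39 (-0.63 to -0.14). The 18 pan-endocrine factors measured had a median of 0.06 and the 19 alpha-side genes 0.17.

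Peptide and granule genes stood higher in Null members. Pyy was at 3119.5 CPM in Control and 6438 CPM in Null cells, a log2 ratio of 1.05 (1.02 to 1.07). In the other gates the ratio was 0.06 in Neurog3-high, 0.22 in Gcg-high and 0.12 in Ins-high cells, but 1.05 in Ghrl-high cells, so it was not seen in the members alone. Scg2 was at 63.2 CPM in Control and 152 CPM in Null cells, a ratio of 1.27 (1.07 to 1.47), with 0.60 in Gcg-high and 0.77 in Ins-high cells. After thinning to 3000 UMIs, a Scg2 UMI was found in 12.5% of Control (9.20 to 16.4) and 26.2% of Null members (20.6 to 32.5), and in 1.17% and 0.516% of acinar-gate cells. Without thinning the shares of members were 30.6% and 48.4%. Pcsk1n, an inhibitor of prohormone convertase 1, was at 481 CPM in Control and 904 CPM in Null cells, with medians of 3.50 and 8.10 UMIs per 10000 per cell. Chga was at 2080.0 CPM in Control and 3008 CPM in Null cells, with medians of 18.9 and 26.9. The per-cell distributions of all 4 genes overlapped.

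Of the 32 granule and processing genes, 28 had a ratio above 0, against 59.8% of all 10290 genes measured. Their median was 0.36, or 0.18 with free RNA subtracted, and only Scg2 passed 2-fold. All 16 genes of the unfolded protein response list had a ratio above 0, with a median of 0.26 and 0 past 2-fold. The chaperone gene Hspa5 was at 886 and 1237 CPM and the disulfide isomerase gene Pdia3 at 505 and 705 CPM. Both medians stood above the 0.07 of all genes. Of 20 immediate early and stress genes, 16 had a ratio above 0 with a median of 0.24, and the 2 heat shock genes Hspa1a and Hspa1b were at least 2-fold higher. With the estimated free RNA subtracted, the ratios were 0.86 for Pyy, 1.11 for Scg2, 0.71 for Pcsk1n, 0.32 for Chga and -0.005 for Chgb. Against the 132 Control cells without Xist, Pyy had a ratio of 0.88 and Scg2 1.26.

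Other peptides went the same way or the opposite way. Gast was at 289 CPM in Control and 557 CPM in Null cells, a ratio of 0.94 (0.85 to 1.04), and Ppy at 132 and 247 CPM, a ratio of 0.90 (0.76 to 1.05). Iapp was at 342 and 733 CPM, a ratio of 1.10 (1.01 to 1.19), but 27.2% of its Null UMIs came from 1 cell, and its medians per cell were 0.727 and 0.568 per 10000. Cck, cholecystokinin, was lower in Null members, at 579 and 351 CPM, a ratio of -0.72 (-0.81 to -0.63). Gcg, Ins1 and Ins2, which the rule caps, were lower as measured, at 155 and 65.8 CPM, 81.3 and 49.3 CPM and 169 and 129 CPM. In Neurog3-high cells they stood at 133 and 45.0 CPM, 55.4 and 40.6 CPM and 141 and 116 CPM, and the free-RNA share was 19.8% and 6.59% there. With free RNA subtracted, the ratio turned from -1.24 to 0.90 for Gcg and from -0.39 to 0.65 for Ins2, and went from -0.72 to -1.62 for Ins1. The part of free RNA in these differences was not tested beyond the subtraction.

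Onecut2, a cut-homeodomain factor, was the transcription factor named by the ranking on the higher side. It had 6.88 CPM (4.71 to 9.71) in Control and 22.4 CPM (18.2 to 27.3) in Null members, a ratio of 1.70 (1.11 to 2.33), with a UMI in 26 of 353 and 42 of 225 cells without thinning. In the Null library 27.6% of its UMIs came from 1 cell. Its ratio was 1.16 in Neurog3-high, 1.11 in Gcg-high and 1.11 in Ins-high cells, and 6.56 in Sox9-high trunk cells. There it stood at 0.524 and 49.4 CPM, so the ratio there was larger than in the members.

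Most other genes named on the higher side were carried by 1 cell. Of the Null UMIs of Cstdc5, Stfa1, Ifitm1, Cxcl2, Alox5ap, Cd52, Srgn and Tyrobp, most of them known from leukocytes, between 90.7% and 99.1% came from 1 cell each. Cstdc5 and Stfa1 belong to a family of near-identical genes, so the split of reads between them is uncertain. On the lower side, 99.6% of the Control UMIs of the mast cell protease gene Cma1 came from 1 cell. Xist and Tsix were lower in the Null library, with a ratio of -9.99 (-13.03 to -8.13) for Xist, and the Y-linked Ddx3y was higher, with 1.37 (1.11 to 1.63). Tsix lies antisense to Xist, and their reads cannot be told apart if strand was not used.

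Removal of cells with 3 or more UMIs of other cell types' markers left 297 Control and 186 Null members. In these, Scg2 had a ratio of 1.65, Pyy 1.20, Gast 1.05 and Pcsk1n 0.96. Lrpprc, a regulator of mitochondrial RNA, had a ratio of 0.94, and the sialyltransferase genes St8sia3 and St6galnac5 had 1.51 and 2.04. Ripply3, a T-box corepressor, had 1.503. On the lower side, leaving out Xist and Tsix, the ranking in these cells named 10 genes with ratios between -2.78 and -1.94. Among them were the metallothionein gene Mt2 at -2.46, the mitotic kinase gene Cdk1 at -2.45, Phgdh at -2.21, Hes1 at -1.961 and the osteopontin gene Spp1 at -1.94. In all members the same genes had -1.18, -0.80, -1.51, -1.42 and -0.39 as measured. With free RNA subtracted, again in all members, they had -0.10, 1.02, -0.71, 0.29 and 0.41, so Cdk1, Hes1 and Spp1 turned.

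**Figure D3:**
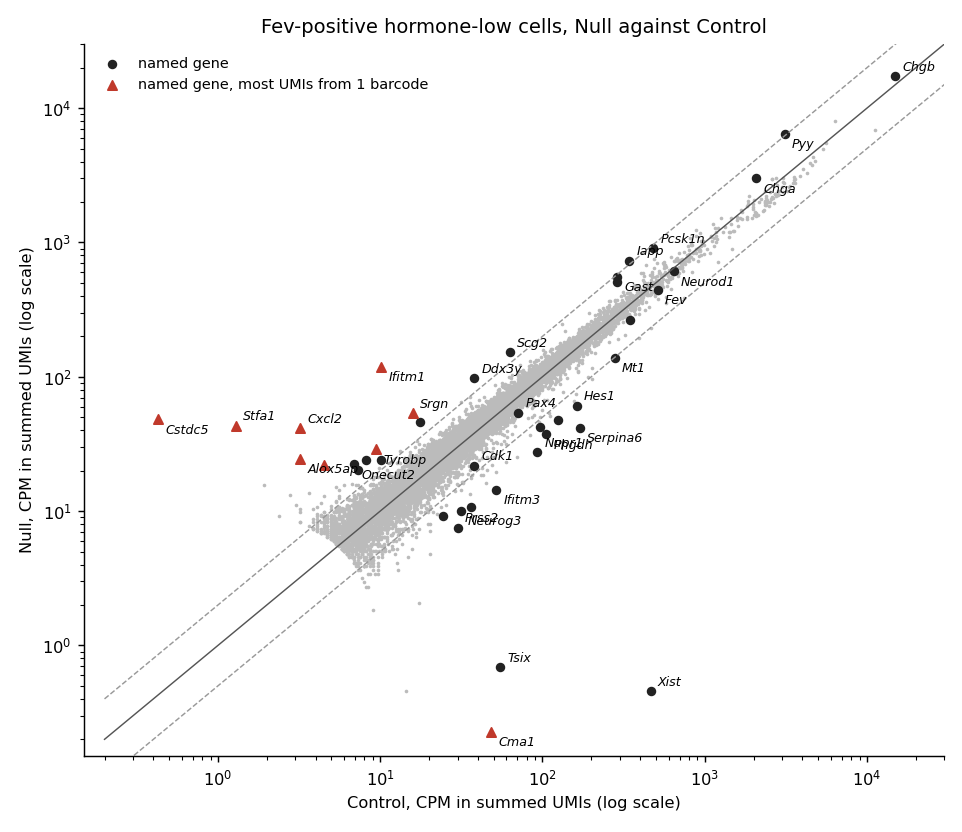
CPM in Null against Control members on log axes, for genes with at least 50 UMIs over both libraries and a UMI in each. The solid line marks equal levels and the dashed lines a 2-fold difference, black points are named genes and triangles are named genes with most UMIs from 1 cell. Chgb, Neurod1 and Fev lie near the solid line, and Pyy and Scg2 lie at or beyond the upper dashed line.

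Several genes lower in Null members had no counts left above the floor when free RNA was subtracted. Serpina6, a corticosteroid-binding globulin, was at 171 and 41.6 CPM, a ratio of -2.04 (-2.28 to -1.80), and its ratio was -1.41 in Neurog3-high and -2.04 in Ins-high cells. After the subtraction it was at or under 3 counts in both libraries, so no ratio is given. The Notch target Hes1 was at 162 and 60.8 CPM, a ratio of -1.42 (-1.62 to -1.21), or 0.29 with free RNA subtracted. Nupr1 (-1.76), the protease gene Prss2 (-1.998), Serpini2 (-1.75), Ifitm3 (-1.85) and the growth factor gene Ptn (-1.38) were likewise at or under 3 counts in both libraries after the subtraction. Phgdh, the entry enzyme of serine synthesis, had a ratio of -1.51 as measured and -0.71 after subtraction. Neurog3, capped by the rule in UMIs, was at 31.4 and 10.1 CPM.

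S phase genes stood lower in Null members, with a median of -0.83 over 19 genes and 6 at least 2-fold lower. Over all 10290 genes measured the median was 0.07, and 1.05% were at least 2-fold lower. Uhrf1, a maintenance factor of DNA methylation, had a ratio of -1.51 (-2.15 to -0.91) and Mcm5, a subunit of the replicative helicase, -1.12 (-1.67 to -0.59). After free RNA was subtracted the list median was -0.10. Mcm5 then stood at -0.64, Rrm2, a ribonucleotide reductase subunit, at -0.40 and Mcm3 at 0.35, and Uhrf1 at -1.44 on 21.5 and 8.72 counts left. The G2/M genes had a median of -0.37, which turned to 1.11 after subtraction and to 0.14 against Control cells without Xist, and fell to -1.87 without cells holding other cell types' markers. Its gene Mki67 stood at 44.7 and 56.2 CPM, a ratio of 0.33 that turned to -1.52 without those cells and to -0.35 as the mean of per-cell CPM. After the subtraction Mki67 and Top2a were at the floor of 3 counts in Control members, with 163 and 179 counts left in Null members. Neither entered the median of 1.11. In Neurog3-high cells, Uhrf1 had a ratio of -0.0035 and Mcm5 -0.18.

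Receptors and targets of FGF signalling were of interest because Fgf9 was removed. Receptor RNA was low in members: Fgfr1 stood at 9.03 and 10.97 CPM, Fgfr2 at 21.7 and 21.5 CPM, Fgfr3 at 5.81 and 7.54 CPM and Fgfr4 at 7.31 and 8.45 CPM, against 57.9 and 84.2 CPM for Fgfr2 in Neurog3-high cells. Of the 6 receptor genes measured, 5 were at least 2-fold lower than in Neurog3-high cells in both libraries and 1 higher. Over all 11603 genes measured against Neurog3-high cells, 9.11% were lower and 6.72% higher. Klb, the coreceptor of endocrine FGFs, stood at 19.4 and 28.8 CPM against 5.75 and 4.57 CPM. Of 11 FGF and ERK target genes measured, 0 passed 2-fold between the libraries. Over all 10290 genes the shares were 0.593% higher and 1.05% lower, so a 0 does not set this list apart. The median of the targets was -0.08, against 0.07 over all genes. The cyclin gene Ccnd1 had the lowest ratio of the list, -0.76, or 0.51 with free RNA subtracted. The phosphatase gene Dusp6 had a ratio of -0.55 (-0.91 to -0.20) and the ETS factor Etv5 -0.46 (-0.93 to 0.0016). Dusp6 came to -0.22 against Control cells without Xist and to -0.15 with gates on thinned counts. Spred3, an inhibitor of the pathway, had -0.08 (-0.41 to 0.24). Others went the other way, with 0.55 for Egr1, 0.34 for Spry2 and 0.09 for Etv1, and 5 of the 11 targets had a ratio above 0. Spred3 was among the 34 genes above all 3 neighbouring gates, at 36.3 and 34.3 CPM in members and 6.13 and 5.37 CPM in Neurog3-high cells.

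**Figure D4:**
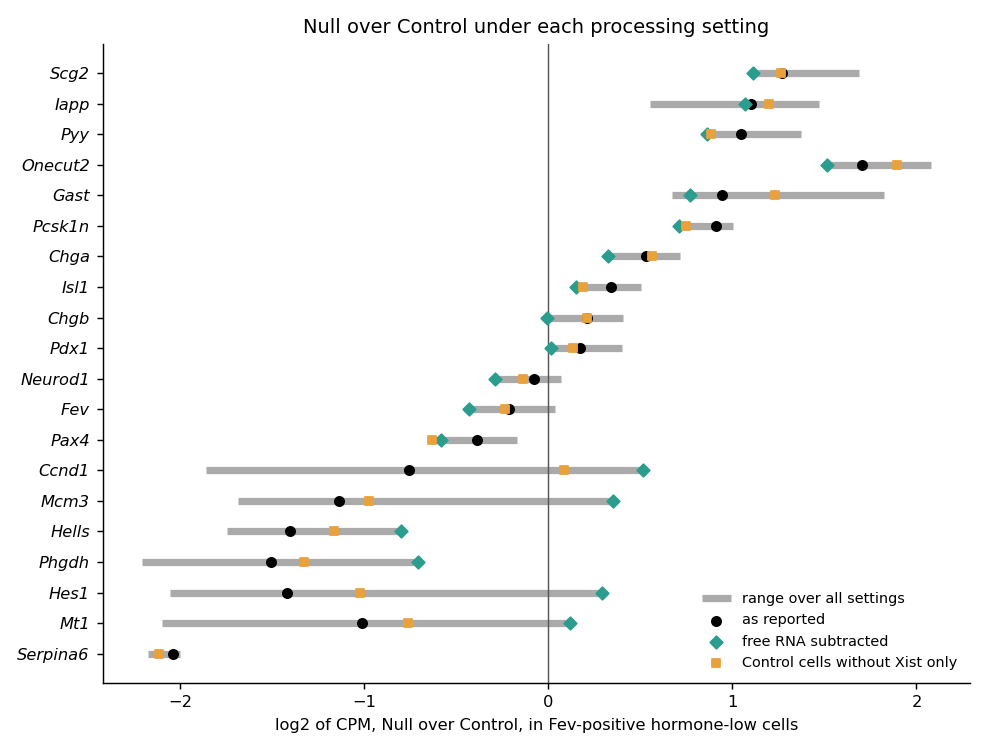
Log2 ratio of Null over Control CPM for 20 genes. Grey bars give the range over all processing settings, black points the reported value, diamonds the value with free RNA subtracted and squares the value against Control cells without Xist. Scg2, Pyy, Onecut2, Gast, Pcsk1n and Chga stay above 0, and Hes1, Mcm3, Ccnd1 and Mt1 reach values above 0 with free RNA subtracted, while Serpina6 has no diamond because it was at the floor of 3 counts.

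The limits of the gate were gradual. Cells that met all other limits with exactly 3 Fev UMIs had Chgb at 12981 and 15834 CPM (76 and 34 cells). Those with 2 had 10669 and 10570 CPM (80 and 45 cells), and those with 1 had 5400 and 5462 CPM (181 and 100 cells). Cells with at least 3 Fev and at least 3 Neurog3 UMIs, which the rule leaves out, numbered 159 and 71, with Chgb at 8742 and 10195 CPM and Pax4 at 189 and 180 CPM. Fev stood at 579 and 683 CPM in these cells, above the 513 and 442 CPM of the members.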

How the data were processed

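Droplet RNA-seq of 2 libraries was used, 1 per group. The authors deposited raw UMI counts, whole numbers for each gene in each barcode, made with Cell Ranger 6.1.1 (bcl2fastq, Seurat 3.2.3 and mm10 are also named), per the submitters' processing notes. The strand setting was not given in the sources used here.

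The members and gene lists were chosen with earlier results of these data known. Endocrine gates (6), a Sox9-high, an acinar and a collagen gate were set on marker counts without clustering, and no gates overlapped. UMIs were summed per gate and library, and CPM and log2 ratios computed over genes with at least 50 UMIs, with exact Poisson intervals, Clopper-Pearson intervals for shares, and a count of 0 set to 3 counts per library for ratios. "Higher" and "lower" beyond 2-fold describe these sums, and 1 library per group allows no p-value. For shares of cells with a UMI each cell was thinned to 3000 UMIs. Named genes had at least 20 CPM in the higher class and were ranked by the interval bound nearest 0: 12 per direction between libraries, 8 per direction between gates and 10 above all 3 neighbouring gates. The same ranking was applied to the Chgb, Pyy, Fev and Neurog3 splits and to members without other cell types' markers. Members of the 28 lists could be named too. The free-RNA share was set from 13 acinar enzymes, its profile from all barcodes. Doublets were not removed beyond the gates, and Scrublet (scanpy 1.11.5) served as an alternative. Coordinates are from GENCODE vM21 (32158 of 32285 features matched). The ratio code was tested on simulated counts. Python packages were numpy 2.4.6, scipy 1.17.1 and pandas 2.3.3. Alternatives changed the depth, mitochondrial, Fev, hormone and gene limits, the summing, the scaling and the cells kept. Some results are not reported here.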

Additional observations from a re-analysis of the deposited data

How the results depend on the processing

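No paired analysis was possible because each group was 1 library. Among endocrine cells, the ratio of member shares ranged from 0.880 with Fev at least 2 per 10000 UMIs to 1.15 with at least 5 Fev UMIs. As a share of all barcodes that passed the depth and mitochondrial limits, the ratio was 1.18. Reported counts were 61 genes at least 2-fold higher and 108 lower in Null members. Lower genes numbered 184 with Fev at least 2 per 10000 UMIs and 179 at 30000 UMIs or fewer, and higher genes 96 with gates on thinned counts. Against Control cells without Xist there were 118 higher and 63 lower, with free RNA subtracted 175 and 62, with at least 20 UMIs per gene 217 and 276, and with at least 200 UMIs 9 and 34. Against Neurog3-high cells, 780 higher and 1057 lower genes became 436 and 627 with at least 200 UMIs per gene, which tests fewer genes. The Pax4 share difference was 3.81 percentage points without thinning (44.2% and 48.0%), the Control and Null cells then differing in depth.

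Some ratios turned. With free RNA subtracted, Gcg came to 0.90, Ins2 to 0.65, Cdk1 to 1.02, Spp1 to 0.41, Hes1 to 0.29, Mcm3 to 0.35, Mt1 to 0.12, the G2/M median to 1.11 and the acinar marker median to 0.13. Of 10290 genes, 69 were at the floor of 3 counts in Control members after the subtraction, 8 in Null members and 27 in both, and these 3 sets were left out of that setting, a choice made after their values were seen. Ifitm1 came to -2.39 with the Fev limit per 10000 UMIs and to -2.71 at 30000 UMIs or fewer, where Srgn came to -4.93. The G2/M median was 0.14 against Control cells without Xist. The cause was not tested. The estimate of free RNA takes its divisor and its profile from all barcodes, cells included, so every ratio after subtraction rests on that choice. Depth limits the calls of Pax4 in single cells and all values under about 50 UMIs.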
